A study of Drosophila melanogaster with 2 samples.

Results

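The white locus of Drosophila melanogaster held the 2 enriched regions of highest fold in a chromatin immunoprecipitation and sequencing (ChIP-seq) experiment on the Hox transcription factor Deformed. The members were taken as every region on chromosome X whose centre lay between positions 2670000 and 2705000 in the coordinates of the deposited lists, a 35 kb window. That rule found 2 of the 1079 regions of the stricter list, made at a p-value cutoff of 0.0001, and the same 2 of the 3898 regions of the larger list, made at 0.001. They are called here the left region and the right region, by coordinate. The locus was chosen by fold, in which its regions rank 1 and 2 in both lists, and by score, in which they rank 1 and 3, so these values describe the pair and no test of them is given.

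The libraries came from wild-type embryos of the strain Oregon R, 5 to 9.5 hours old, from eggs laid over 4.5 hours at 25 °C and aged for 5 hours, at stages 9 to 12. The first library was precipitated with an anti-Deformed antibody raised in guinea pig, and the second with mock IgG of the same species. Both groups share the genotype and the age, and the labels name no transgene. Each group holds 1 library of pooled embryos, so nothing below has a replicate error. After the caller removed duplicates the Deformed library held 15547495 tags (aligned reads) and the IgG library 12694075.

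The gene white (w) encodes the ABC transporter subunit that pairs with Scarlet or Brown to carry pigment precursors into eye pigment granules, and loss of it leaves the eye white. It has a short first exon, a large first intron and a compact run of further exons with short introns. A shortened copy, mini-white, from which most of the large first intron was removed, is the eye-colour marker of many fly transformation plasmids, enhancer-reporter plasmids among them. Deformed itself specifies the mandibular and maxillary segments of the embryonic head and binds DNA through a homeodomain. In the RefSeq gene table of Release 6 plus ISO1 MT, w lies between CG32795 and CG12498, and the span of kirre, which encodes an immunoglobulin-family adhesion protein of myoblast fusion, overlaps it. In that table w falls outside the window, so the window holds w only if the lists are on another build than the table. The name of the locus therefore rests on the reading of the lists as Release 5, which no source used here states. On X, 71 of the table's 2705 genes start past the last deposited region.

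The left region ran from X 2683986 to 2687295, a length of 3310 bases. It held 1698 tags in the stricter list (95% exact Poisson interval 1618 to 1781) and 1697 in the larger list, within the same edges and with the same summit. Its deposited fold at the summit was 25.21, its score was 3100 and its false discovery rate (FDR) was 0%. The score is the p-value on a negative log10 scale, multiplied by 10, and 3100 was the highest value of both lists, held by this region alone. The right region ran from X 2689944 to 2690810, a length of 867 bases, with 328 tags in both lists (293 to 365), a fold of 16.34, a score of 1865.34 and an FDR of 0%. An FDR of 0% was given to 0.834% of the stricter list and 0.231% of the larger list. These FDR values come from the contrast that chose the pair.

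The layout was a long block, a stretch without a call, and a short block. The gap between them measured 2648 bases, 38.8% of the 6825 bases from the left edge of the left region to the right edge of the right region, and the larger list also called nothing in it. Edges and gap were the same to the base at both cutoffs. The summit of the left region lay 970 bases from its left edge, at 29.3% of its length, with 2340 bases on its gap side. The summit of the right region lay 407 bases from its left edge, at 46.9% of its length. The summits were 5395 bases apart. No annotation known to be on the build of the lists was used here. Whether the gap coincides with the first intron of w, and the blocks with its exons, was therefore not measured. The lists give no tag count for the gap. The least dense X region called in the larger list held 0.0902 tags per base and the smallest tag count of a called X region was 13, so an uncalled stretch is not shown to be empty at this depth.

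**Figure D1:**
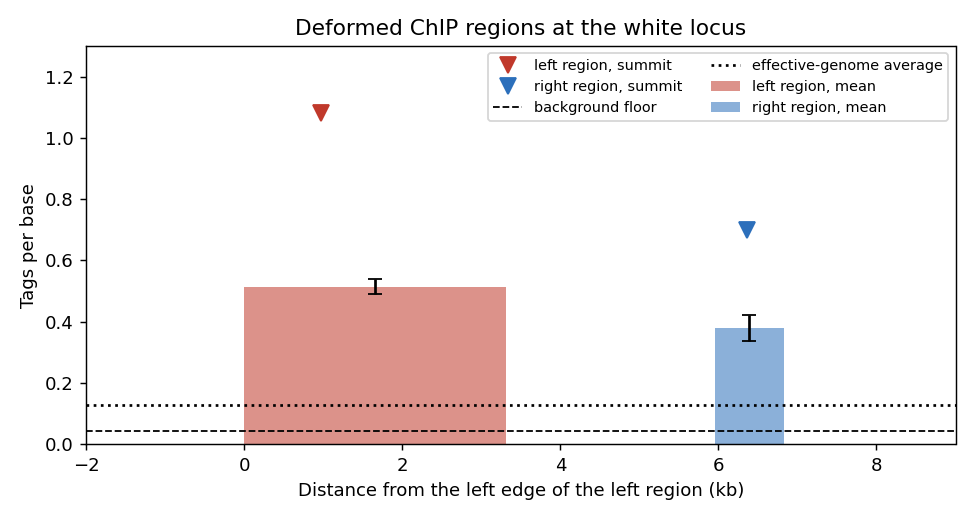
Mean tags per base of the left and right regions (bars, with 95% Poisson intervals) by distance in kb from the left edge of the left region. Triangles mark the summit densities of 1.08 and 0.70 tags per base, computed with the background at its floor, the dashed line is the floor of 0.0428 and the dotted line the average of 0.130 over the effective genome. The 2648 bases between the bars carry no call, and their tag density is not in the lists.

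In both lists the next calls on X lay at least 20.4 kb from the pair. Wide stretches without a call were not particular to this locus. The stricter list also called nothing between X 6245576 and 7925085, or between 14302961 and 15912332. In the stricter list the nearest region to the left ended 223 kb away and held 31 tags at a fold of 3.69, and the nearest to the right began 656 kb away and held 26 tags at a fold of 9.34. In the larger list the left neighbour, at 2663445 to 2663536, lay 20.4 kb away with 29 tags and a fold of 3.42. It is the region just outside the window on that side. On the right, the closest call of the larger list was 65.1 kb away with 18 tags and a fold of 4.20. All of these neighbours had an FDR of 100%, as did most other X regions of the stricter list.

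The left region was the denser of the pair. It held 0.513 tags per base (0.489 to 0.538) and the right region 0.378 (0.338 to 0.422), a ratio of 1.36 with a 95% interval of 1.20 to 1.53 from the exact binomial split of their tags. Although 3.82 times as long, the left region thus held 5.18 times as many tags. These intervals cover counting error in 1 library only, and tags without molecular identifiers are not independent molecules. Together the pair held 2026 tags, 10.1% of all tags in X regions of the stricter list on 6.48% of their bases, but only 0.0130% of the filtered library.

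Among X regions the pair was set apart by fold, a value it was chosen by, and not by tag density. The median of the other 136 X regions of the stricter list was 0.197 tags per base, so the left region was 2.60 times and the right region 1.92 times as dense. Of those 136, 7 were denser than the left region and 12 denser than the right region. The densest, at 21803829 to 21804617 in the last 2 Mb before the centromere, held 0.953 tags per base at a fold of 2.40. Of the 7, 5 lay in those last 2 Mb. The other 2 lay at 13939734 to 13940411, with 0.661 tags per base at a fold of 6.96, and at 9942937 to 9943043, with 0.514 at a fold of 4.44. In fold the order was different. The highest fold of any other X region was 10.70, which the left region exceeded 2.36 times and the right region 1.53 times.

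The larger list gave the same order against a lower median. Its other 429 X regions had a median of 0.110 tags per base, against which the left region was 4.65 times and the right region 3.43 times as dense, and 7 and 11 of them were denser. Against the 16 other stricter X regions of at least 1000 bases, whose median was 0.262 tags per base, the ratios were only 1.96 and 1.44. The highest fold among those 16 was 7.77. At 3310 bases the left region was the longest X region of both lists.

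**Figure D2:**
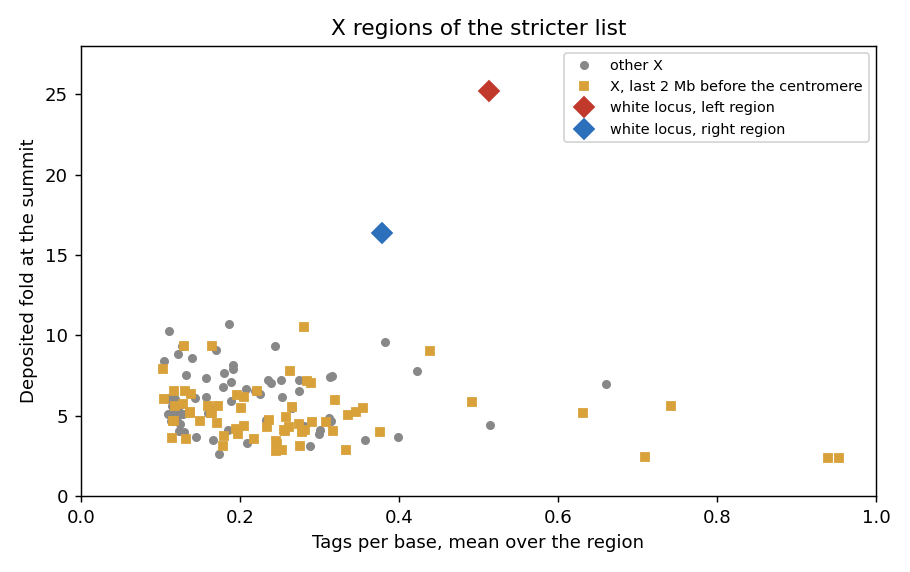
Deposited fold at the summit (y axis) against mean tags per base (x axis) for the X regions of the stricter list: the pair at the white locus, 66 regions in the last 2 Mb before the centromere and the other 70. The pair sits at folds of 25.21 and 16.34, above all others, while 7 regions lie to the right of the left region.

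The background that the caller set against each region was recovered from the score. In MACS the score of a region follows from its tag count and a Poisson mean, the expected background tags. The score helped choose the locus, and at a given tag count and length a higher score means a lower recovered background. The backgrounds below, and the ratios to them, are therefore the selecting values in another form and describe the pair without being independent of its choice. Solving for that mean gave 37.1 background tags for the right region, or 0.0428 per base. This was also the commonest background of the lists. In the stricter list 221 of 1078 regions with a solution, 20.5%, had this value to within 0.0001 tags per base, 851 were above it and 6 below. It is called the floor here as the lowest common value, although it was not the minimum. The regions below it were not explained, and how the caller set the floor is not in the lists. At the floor, the deposited fold times the background of 50 bases, the fragment length, gave a whole number of fragments at the summit, to within 0.05, in 221 of 221 stricter regions and in 1006 of 1008 larger-list regions. Away from the floor it did so in only 63.6% of 857 stricter regions. In the rest the check failed. The deposited fold is rounded, and at a high background that rounding alone can move the product by more than 0.05. A failure there does not show that the background is wrong, and the check cannot settle it. Backgrounds away from the floor, and ratios to them, are therefore less certain.

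Against this background the right region held 8.83 times the expected tags over its whole length (7.90 to 9.84), and its summit had 35.0 overlapping fragments. The highest such ratio among the other X regions was 4.91, in an 89-base region of 17 tags whose recovered background was below the floor, and their median was 2.14. For the left region the score of 3100 was taken as the caller's ceiling, so its background has only an upper bound of 579 tags, 0.175 per base, which is 4.08 times the floor. Its tags were therefore at least 2.93 times its background. If its background was at the floor, it held 12.0 times the expected 142 tags (11.4 to 12.6), and its fold of 25.21 gives 54.0 fragments at the summit, again a whole number to within 0.05. Other whole numbers correspond to other backgrounds below the bound, so the floor value for the left region was not established.

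No other region of at least 500 bases in either list was at the floor. The longest other region at the floor had 258 bases in the stricter list and 316 in the larger list. Of 127 other stricter regions of at least 500 bases, on all arms, 0 were at the floor, and their backgrounds ran from 1.13 to 15.8 times the floor with a median of 4.21. The 7 X regions denser than the left region had backgrounds of 5.82 to 13.5 times the floor. Such backgrounds lie so far above the floor that rounding of the fold alone can fail the whole-number check. That check therefore cannot judge them. Among regions at the floor, the highest other fold was 11.21, with 24.0 fragments at its summit.

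**Figure D3:**
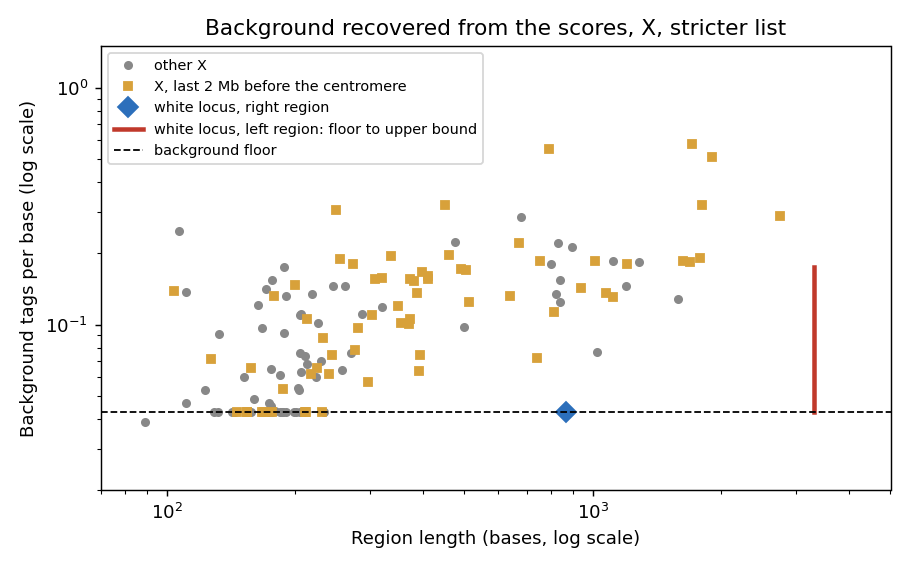
Background tags per base recovered from the score (y axis, log scale) against region length in bases (x axis, log scale) for X regions of the stricter list. The right region of the white locus lies on the floor of 0.0428 at 867 bases, the other X regions of at least 500 bases lie between 0.0722 and 0.580, and the bar for the left region spans the floor to its upper bound of 0.175.

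The size of the enrichment depends on which background is taken. The filtered Deformed library averages 0.130 tags per base over the effective genome of 120 Mb, 3.02 times the floor. Relative to that average the left region was 3.96 times as dense over its length and the right region 2.92 times. At the summits the density was 8.34 times the average for the left region, with its background at the floor, and 5.40 times for the right region. With the average as background, the 328 tags of the right region would have scored 609, against the deposited 1865.34, so the caller did not use it. Why the floor lies below the average was not tested.

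All these values count tags by sequence. Embryo chromatin and any other DNA that carries the same sequence, such as a plasmid with mini-white, give the same tags, and the part of such DNA in the counts was not tested. The lists give no control tag count for the regions or for the gap. The background recovered above is the mean that the caller expected, and not a count of control tags at the locus. The Deformed library lost 22.7% of its tags to the limit of 4 at 1 position and the control lost 2.48% to its limit of 3. How many tags that filter removed at the white locus is not in the lists.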

How the data were processed

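The 2 deposited lists come from 1 Deformed and 1 IgG library. Bowtie was the aligner, per the submitters' processing notes. Neither its version nor the build is given in the sources used here. Regions were called with MACS 1.4.0beta, per the file headers, with 50-base fragments, 40-base tags, an effective genome of 120 Mb and local backgrounds over 1000 and 10000 bases. Each deposited tag count is a whole number after the duplicate filter. The deposited score is the negative log10 of a p-value, multiplied by 10, the deposited fold is a ratio at the summit, and the deposited FDR is a percent. These are the authors' values. Tags per base, counting intervals, neighbours and the Poisson background behind each score were computed here. The tools were scipy 1.17.1, numpy 2.4.6 and pandas 2.3.3 under Python 3.11.15, with matplotlib 3.10.9 for plots. The recovery of the background was run on scores simulated with the same Poisson formula, none as high as the left region's. That tests the numerical solution and not how the caller formed its scores. The stricter list was the main list. Named genes were limited to w, its transporter partners and its neighbours in the gene table. The members were chosen with earlier results of these data known.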

Additional observations from a re-analysis of the deposited data

How the results depend on the processing

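Of 31 recomputed values, 16 stayed equal or within the counting interval and 15 moved. Number of regions, edges, gap, tags, folds and recovered background were the same within counting error in the larger list, which comes from the same libraries and so says little on robustness. Counting the tag number into the Poisson tail changed the right region's background from 37.1 to 36.9 tags. The density ratio to other X regions, 2.60 for the left and 1.92 for the right region, was 4.65 and 3.43 in the larger list, 2.91 and 2.15 outside the last 2 Mb before the centromere, 1.89 and 1.395 against X regions of at least 100 tags, 3.93 and 2.90 against all arms, and 1.96 and 1.44 against X regions of at least 1000 bases, an alternative chosen after seeing the data. The ranks by score, 1 and 3 of 1079, were 1 and 2 by fold, 6 and 47 by tags, and 24 and 63 by tags per base. The ratios differ because the comparison sets do. No paired analysis was possible because each group holds 1 library. The interval of 293 to 365 around the right region's tag count covers counting error at this depth only.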
